A study of Mus musculus with 16 samples.

Results

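Neutrophils of the naive spleen were chosen by their transcript counts in the single-cell RNA-seq matrix of all CD45+ spleen cells, as the cells with at least 10 UMIs (unique molecular identifiers, each 1 captured transcript) summed over S100a8 and S100a9, at least 1 UMI of Csf3r, Retnlg or Cxcr2, and no UMI of Cd79a, Cd3e or Csf1r. The rule returned 338 of 47060 cells (0.718%, 95% exact binomial interval 0.644 to 0.799%). They were set beside 617 other cells of the same matrix that held at least 1 Lyz2 UMI and none of Cd3d, Cd3e, Cd3g or Cd79a, called here the other Lyz2+ cells. Because 5 of the genes named above chose the neutrophils and 3 kept cells out, those genes are described below and were not tested. The other Lyz2+ cells were a mixed set. Of the 617, 484 held Csf1r, 105 held a single Lyz2 UMI, and 136 held Cd79b, Ms4a1 or Nkg7, genes of B cells and of NK or T cells.

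Neutrophils are short-lived granulocytes that leave the bone marrow under the control of CXCR2 and CXCR4 and patrol blood and spleen. Their granules are filled in sequence during maturation: azurophil (primary) granules with elastase and myeloperoxidase, specific (secondary) granules with cathelicidin, neutrophilic granule protein and lactoferrin, and gelatinase (tertiary) granules with MMP9, so that a granule transcript dates a cell along that course. S100A8 and S100A9 form calprotectin, the main cytosolic protein of these cells, CSF3R is the receptor of the growth factor G-CSF, and Retnlg encodes a resistin-like protein of mouse granulocytes.

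The study followed mouse kidney allografts that were accepted or rejected, with naive spleen as the tissue outside transplantation. Naive spleen cells came from WT animals of the strain given as C57BL/6J, were freed from the organ by grinding through a strainer with lysis of red cells, and were sorted as viable CD45+ cells for 3′ droplet libraries. No treatment or graft was involved, and neither age nor sex is used here. The matrix held 5 libraries, told apart by a tag in the cell barcodes. The methods treat mice as separate samples, but no label says which mouse a tag stands for or how many mice gave spleens. Every p-value therefore takes libraries as its units, whose differences may in part be technical. Each p-value and SE comes from a fit that shares information on variance between genes. An SE can thus be narrower than a gene's own spread over libraries implies, and its p-value smaller. The libraries held 8052 to 11340 cells and 30054753 to 37016197 UMIs each, with a median of 2716 to 3372 UMIs per cell. The lowest cell held 503 UMIs, and no cell held more than 10.0% mitochondrial UMIs. A barcode was shared between libraries by 477 cells, 3 of them neutrophils. Intervals and limits cover counting error only.

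The neutrophils were unevenly spread over the libraries. Library 1 held 197 neutrophils among 11340 cells, which is 1.74% (1.505 to 1.99%). Library 3 held 110 among 9029 cells, which is 1.22% (1.00 to 1.47%). Libraries 2, 4 and 5 held 10, 8 and 13, which is 0.124% (0.0596 to 0.228%), 0.0883% (0.0381 to 0.174%) and 0.136% (0.0723 to 0.232%). The mean over libraries was 0.661% ± 0.768 (SD, n = 5), and libraries 1 and 3 together held 90.8% of all neutrophils. Without them the share was 0.116%. Libraries 1 and 3 therefore stood apart from the other three, and the counts of called genes are given below with and without them.

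**Figure D1:**
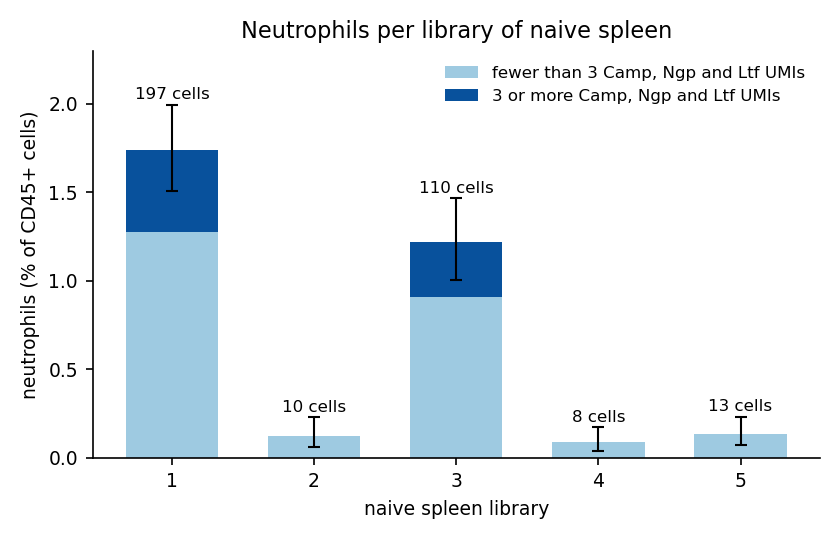
Share of CD45+ cells called neutrophils in each naive spleen library, split by granule transcripts (dark, 3 or more UMIs of Camp, Ngp and Ltf), with 95% exact binomial intervals of the whole bar. Libraries 1 and 3 reached 1.74 and 1.22%, the other libraries stayed at or below 0.136%, and the dark class was found in libraries 1 and 3.

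Other transcripts moved with these libraries. Hbb-bs, a red cell globin gene, stood at 3416 and 595 CPM (UMIs scaled to a common total per library) over all cells of libraries 1 and 3 and 57.7 to 61.8 CPM in the others. S100a8 was found in 10.0 and 4.14% of B cells of libraries 1 and 3, against 0.158 to 0.212% in the other libraries, at a median depth of 2310 to 2946 UMIs per B cell. The part of red cells, free RNA or the make-up of the libraries in the neutrophil shares was not tested.

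The genes of the rule are given as a description of what it chose. S100a8 and S100a9 together held a median of 297 UMIs per neutrophil and 24.9% of all neutrophil UMIs. Their part of the UMIs was 25.8 and 25.1% in libraries 1 and 3 and 10.9, 14.2 and 13.8% in libraries 2, 4 and 5. In neutrophils with fewer than 3 UMIs of Camp, Ngp and Ltf, the only kind in libraries 2, 4 and 5, it was 17.3 and 14.7% in libraries 1 and 3. Just outside the threshold, 1 cell held 8 and 1 held 9 UMIs of the pair. Just inside it, 1 cell each held 10, 11 and 12 UMIs, while 283 neutrophils held 100 or more. Csf3r, Retnlg and Cxcr2 were each found in 306 neutrophils (90.5%). Csf3r stood at 976, 2560, 1194, 2364 and 2431 CPM in libraries 1 to 5. Retnlg stood at 7611, 7135, 5391, 2567 and 8153 CPM, and Cxcr2, the receptor for CXCL chemokines, at 940, 1579, 809, 2094 and 1823 CPM. Among the other Lyz2+ cells the summed S100a8 level ran from 8.52 to 14768 CPM over libraries, and 59 of those cells held 10 or more UMIs of the pair.

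Most cells with at least 10 summed UMIs of S100a8 and S100a9 and at least 1 of Csf3r, Retnlg or Cxcr2 passed the exclusion. Of 556 such cells, 218 were left out of the neutrophils, 136 of them for Cd79a, 94 for Csf1r and 20 for Cd3e, with overlap. Cells left out for Csf1r alone could still count as other Lyz2+ cells, of which 59 held 10 or more UMIs of the pair. The comparison levels and fold changes below therefore include such neutrophil-like cells, and a fit without them was not run. Those with Cd79a held a median of 5955.5 UMIs, and 65 of the 94 with Csf1r held a single UMI of it. Keeping all 556 would have raised the share to 1.18%. No doublet caller was run, and the exclusion stood in for one.

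Of the 338 neutrophils, 53 held at least 1 UMI of Cd79b, Ms4a1, Cd3d, Cd3g, Cd8a, Cd4, Nkg7 or C1qa. The 6 B cell markers summed to 67.6 to 456 CPM per library, against 269 to 417 CPM in the other Lyz2+ cells, and lay above those cells in libraries 2 (381 against 278 CPM) and 5 (456 against 417 CPM). The rule barred Cd79a and Cd3e, so the levels of the other B and T cell markers are not independent of it. The 6 T cell markers summed to 0 to 67.6 CPM, the 5 NK cell markers to 0 to 42.1 CPM and the 6 dendritic cell markers to 0 to 16.8 CPM. Of the eosinophil, basophil and mast cell markers in the matrix, 4 of 5 (Prg2, Mcpt8, Cpa3 and Ms4a2) were at 0 in all 1068674 neutrophil UMIs, which allows up to 2.81 CPM. The 8 erythroid and platelet markers summed to 2099 and 45.1 CPM in libraries 1 and 3 and to 0 in the other libraries. Ly6g, which defines mouse neutrophils by antibody, was found in 134 neutrophils (39.6%) and in 2.76% of the other Lyz2+ cells.

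Against the other Lyz2+ cells, all 7 tested genes of the cytokine and chemokine list were higher in neutrophils. So were all 5 tested genes of the tertiary granule list, all 4 of the antiprotease list and 6 of 11 chemotactic and cytokine receptor genes. All 6 monocyte markers and all 7 class II genes were lower. UMIs were summed per class and library and fitted with the quasi-likelihood test of edgeR with the library as a block. Of 4702 genes tested, 640 (13.6%) were higher and 2098 (44.6%) lower in neutrophils at an adjusted p under 0.05, 58.2% in either direction. The median gene stood at -0.58 on the log2 scale with plain library totals and at -0.19 with TMM scaling, which gave 883 higher and 1359 lower, so higher genes made up 23.4% of the calls with plain totals and 39.4% with TMM. Fold changes below are on plain totals and are to be read against that median. The granule-negative neutrophils, those with fewer than 3 UMIs of Camp, Ngp and Ltf, gave 772 higher (19.9%) and 1499 lower (38.7%) of 3871 genes. Libraries 2, 4 and 5 alone gave 384 higher (14.6%) and 417 lower (15.8%) of 2636 genes. With comparison cells held to at least 5 Lyz2 UMIs and no UMI of Cd79b, Ms4a1 or Nkg7, 527 were higher and 1551 lower of 3446 genes. The tested genes come from the same cells that the rule chose, so the fit describes what goes with the rule and is no independent test of the cell type.

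Of the 13 genes of the cytokine and chemokine list in the matrix, 7 could be tested and all 7 were higher in neutrophils, with a median log2 fold change of 2.62. Il1b encodes interleukin-1β and lies on GRCm38 chr2:129364570-129371139. It stood at 2193, 3976, 2984, 5066 and 4001 CPM in neutrophils of libraries 1 to 5, and at 379, 111, 264, 121 and 98.5 CPM in the other Lyz2+ cells. The groups did not overlap, and the log2 fold change was 4.30 ± 0.25 (SE, edgeR adjusted p = 5.55e-61). Cxcl2, a chemokine that draws neutrophils through CXCR2, stood at 163 to 946 CPM in neutrophils and at 0 to 59.5 CPM in the other cells (log2 fold change 3.64 ± 0.31). Ccl6 averaged 2200 ± 1347 CPM (SD, n = 5) against 546 ± 158 CPM, and its levels in libraries 1 and 3, 723 and 907 CPM, lay below those of libraries 2, 4 and 5, which ran from 2481 to 3783 CPM. Tnfaip2, which is counted on this list but encodes neither a cytokine nor a chemokine, averaged 1229 against 174 CPM. All 7 genes were also higher without granule-positive cells, and the 6 that could be tested from libraries 2, 4 and 5 alone were higher there.

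Genes of the tertiary granule list were higher as a group, with 5 of 6 genes tested, all 5 higher, and a median of 3.10. The list is broader than its name, since Mmp8, Slpi and Itgam are not confined to tertiary granules. From libraries 2, 4 and 5 alone, 4 of the 5 were higher. Mmp9, gelatinase B, stood at 1090, 1743, 914, 1081 and 912 CPM in neutrophils and at 98.0, 11.4, 44.3, 27.2 and 3.28 CPM in the other cells (log2 fold change 4.92 ± 0.31, edgeR adjusted p = 1.71e-55). Library 2 was the highest, and the classes did not overlap. Slpi, a secreted inhibitor of leukocyte proteases, averaged 2782 ± 1206 CPM against 214 ± 139 CPM. Mmp8, neutrophil collagenase, is mainly a secondary granule protein although counted on this list, and averaged 871 ± 354 against 110 ± 100 CPM. Itgam, the CD11b integrin chain, averaged 509 against 263 CPM, with a log2 fold change of 0.97 that was not called without libraries 1 and 3 (adjusted p = 0.11).

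All 4 antiprotease genes tested, of 8 in the matrix, were higher, and so were the 3 tested from libraries 2, 4 and 5 alone. Wfdc21 averaged 2507 ± 1550 against 126 ± 173 CPM (log2 fold change 5.02 ± 0.28). The stefin gene Stfa2l1 averaged 492 ± 132 against 17.5 ± 25.9 CPM. Cstdc4, which is not on the list but belongs to that cluster of closely related copies, averaged 664 ± 586 against 9.95 ± 14.5 CPM. Reads can be split between such copies, so the levels of both are uncertain. Wfdc17 was uneven, at 2506, 1634, 1082, 473 and 0 CPM in libraries 1 to 5 (log2 fold change 1.17 ± 0.27).

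Other genes, on none of the lists, are named for the size of their difference. Hdc, which makes histamine from histidine, stood at 944, 1852, 1033, 1689 and 1165 CPM in neutrophils and at 3.28 to 132 CPM in the other cells (log2 fold change 5.01 ± 0.30). Asprv1, an aspartic protease, had the largest log2 fold change of the named genes that were higher, at 180 to 490 CPM against 0 to 5.03 CPM (6.14 ± 0.36, edgeR adjusted p = 2.05e-60). Il1f9, the interleukin-36γ gene, averaged 310 against 4.36 CPM, Chil1, a chitinase-like protein, 201 against 5.61 CPM and Nlrp12, of the NOD-like receptor family, 156 against 2.67 CPM. Each of these genes was higher in neutrophils in 5 of 5 libraries. The fit to these same libraries chose the genes, so this count is a description.

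**Figure D2:**
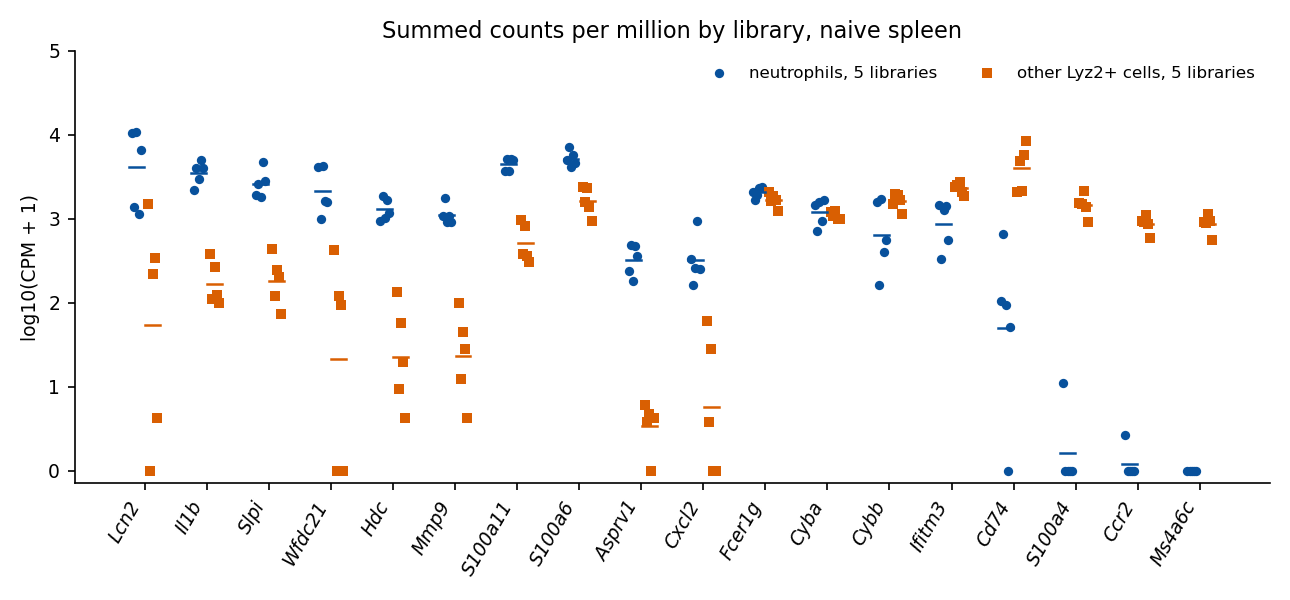
Summed CPM, as log10 of CPM plus 1, of 18 genes in neutrophils (circles) and other Lyz2+ cells (squares) of the 5 naive spleen libraries, with bars at the mean of the plotted values. Il1b, Hdc, Mmp9 and Asprv1 do not overlap between the classes, Fcer1g and Cyba lie together, and S100a4, Ccr2 and Ms4a6c are at or near 0 in neutrophils.

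Of 11 tested chemotactic and cytokine receptor genes, of 13, 6 were higher and 2 lower, with a median of 1.56, and libraries 2, 4 and 5 alone gave 5 higher and 2 lower of 8. Ccr1, a receptor of CCL chemokines, averaged 856 ± 418 against 54.1 ± 51.01 CPM (log2 fold change 3.72 ± 0.30). Cxcr4, which holds neutrophils in the marrow, stood at 145, 545, 190, 743 and 810 CPM against 48.3 to 85.3 CPM, so that libraries 1 and 3 were the lowest here. The 2 lower genes were Tnfrsf1b and Ifngr1, receptors of TNF and interferon-γ. Among 13 tested Fc and pattern receptor genes, of 14, 9 were higher and 1 lower, the inhibitory Fc receptor Fcgr2b, and libraries 2, 4 and 5 alone gave 8 higher and 0 lower of 10. Clec4d, a C-type lectin, averaged 841 ± 433 against 27.5 ± 27.7 CPM. Fcer1g, the shared signalling chain of Fc receptors, averaged 2072 ± 282 against 1691 ± 315 CPM and was not called (edgeR adjusted p = 0.25).

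Surface and adhesion genes gave 7 higher and 0 lower of 10 tested, of 11, and the same counts from libraries 2, 4 and 5 alone. Pglyrp1, a peptidoglycan recognition protein, averaged 1444 ± 370 against 137 ± 76.4 CPM, and Cd44 1112 against 425 CPM. The NADPH oxidase, which makes the oxidative burst, was split: of its 6 genes 4 were higher and 1 lower, and from libraries 2, 4 and 5 alone 3 were higher and 1 lower. The cytosolic subunits Ncf1, Ncf4 and Rac2 were among those higher, of which Ncf4 (log2 fold change 0.75) was not called without library 1, without library 3 or with DESeq2, at 0.58, 0.52 and 0.44. Of the membrane subunits, Cyba was not called at 1268 ± 420 against 1106 ± 116 CPM, and Cybb was lower. Cybb stood at 1583, 163, 1721, 405 and 557 CPM in neutrophils of libraries 1 to 5 against 1126 to 1973 CPM in the other cells (log2 fold change -0.94 ± 0.25). It overlapped the other cells in libraries 1 and 3 and lay below them in libraries 2, 4 and 5, and it was not called from libraries 1 and 3 alone.

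The S100 family outside the rule was divided. S100a11 stood at 3694 to 5202 CPM in neutrophils against 308 to 970 CPM (log2 fold change 3.11 ± 0.23), and S100a6 at 4171 to 7189 against 935 to 2376 CPM (1.66 ± 0.20). S100a4, which like S100a6 lies on chromosome 3, had 6 UMIs in all neutrophils, at 10.1 CPM in library 1 and 0 in each other library. In the other Lyz2+ cells S100a4 stood at 1555, 1476, 2123, 1390 and 922 CPM (edgeR adjusted p = 9.25e-66). Over the list of 9 S100, annexin and galectin genes, 4 were higher and 4 lower, and 3 and 3 of 8 from libraries 2, 4 and 5 alone.

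Of 10 tested myeloid transcription factor genes, of 12, 6 were higher and 3 lower, and 6 and 2 of 9 from libraries 2, 4 and 5 alone. Junb and Fos, immediate early genes, averaged 2391 ± 1134 against 493 ± 85.2 CPM and 2611 ± 1071 against 762 ± 188 CPM. Cebpd averaged 915 against 142 CPM and Klf2 1419 against 520 CPM. Interferon-stimulated genes were mixed, with 6 higher and 4 lower of 13 tested, of 17, and 3 higher and 1 lower of 8 from libraries 2, 4 and 5 alone. Ifitm1 was higher at 2631, 218, 1728, 1419 and 557 CPM against 2.84 to 405 CPM, whereas Ifitm3 was lower at 1003 ± 525 against 2317 ± 341 CPM. Of 11 survival and death genes tested, of 13, 3 were higher and 5 lower with plain totals, and 5 higher and 4 lower with TMM, the median moving from -0.42 to 0.01, while libraries 2, 4 and 5 alone gave 1 higher and 0 lower of 5. Mcl1, which keeps neutrophils alive, was higher at 1152 to 3108 CPM against 630 to 789 CPM.

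Genes of monocytes and of class II presentation were lower in neutrophils. Csf1r, which marks monocytes, was barred by the rule, so this group of genes is not independent of the choice of cells. Ms4a6c, Fn1 and F13a1 were at 0 in all neutrophils, while the other Lyz2+ cells averaged 883 ± 206, 664 ± 341 and 461 ± 242 CPM. Against the limit of 3 UMIs over all neutrophils these levels were at least 315-fold, 237-fold and 164-fold higher in the other cells. All 6 monocyte markers were lower with plain totals, of which Ly6c2 (-0.68 ± 0.29) was not called with TMM, and 5 of the 6 were lower from libraries 2, 4 and 5 alone. All 7 class II genes were lower, with a median of -4.14, and all 7 from those libraries alone. Cd74, the invariant chain, stood at 104, 654, 92.6, 0 and 50.6 CPM in neutrophils and at 2054 to 8520 CPM in the other cells. Of 8 macrophage markers 7 were lower, and 1 was higher, Slc40a1, the iron exporter ferroportin, at 268 to 608 against 104 to 201 CPM (log2 fold change 1.35 ± 0.28). Libraries 2, 4 and 5 alone gave 3 lower and 1 higher of 6.

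Secondary granule genes were tested in 5 of 7 cases and all 5 were higher than in the other Lyz2+ cells, but this rested on part of the libraries. In granule-negative neutrophils, defined below, 1 of 3 tested was higher and 1 lower, and libraries 2, 4 and 5 alone gave 1 higher of 3. The lower one was Chil3, a chitinase-like lectin, which stood at 3764, 0, 4017, 0 and 3899 CPM in all neutrophils of libraries 1 to 5 against 292 to 1579 CPM (log2 fold change 1.13 ± 0.26). All 77 of its UMIs in library 5 lay in 1 cell, and its log2 fold change was 0.47 and not called without library 5, -0.11 and not called with DESeq2, and -3.55 in granule-negative neutrophils. Lcn2 stood at 10410, 1362, 10830, 1148 and 6634 CPM in neutrophils of libraries 1 to 5 against 0 to 1492 CPM (log2 fold change 4.96 ± 0.27), and 120 of its 131 UMIs in library 5 lay in 1 cell. Ngp stood at 28080, 163, 24892, 0 and 0 CPM (3.28 ± 0.31), so that its call came from libraries 1 and 3. Of 6 cell cycle genes tested, 3 were higher and 2 lower, and 1 of 2 was higher from libraries 2, 4 and 5 alone. Mki67 stood at 225, 0, 195, 0 and 0 CPM against 2.84 to 152 CPM, whereas Hmgb2, a chromatin protein, stood at 1144 to 1911 CPM in every library against 200 to 746 CPM.

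The secondary granule genes Camp, Ngp and Ltf split the neutrophils into separate sets of cells. Camp encodes cathelicidin, Ngp neutrophilic granule protein and Ltf lactoferrin, and all lie on chromosome 9 (GRCm38 chr9:109847379-109849617, chr9:110419747-110423012 and chr9:111019271-111042767). Since these genes move together, sequence before the start of each is shown, with that of Il1b, which moves the opposite way. The RefSeq promoter table of GRCm38.p6 gives the 250 bases before each RefSeq start, and the RefSeq starts of Camp, Ngp and Ltf lie 161, 61 and 21 bases inside the genes as GENCODE gives them, while that of Il1b is the same. The part of each window outside the GENCODE gene is printed, at chr9:109849618-109849706 (minus strand), chr9:110419558-110419746 (plus), chr9:111019042-111019270 (plus) and chr2:129371140-129371389 (minus). Each is printed 5′ to 3′ on the gene's strand. Capitals mark TTGCNNAA, a core of C/EBP sites, and GAGGAA, a core of PU.1 sites, searched on both strands.
Camp: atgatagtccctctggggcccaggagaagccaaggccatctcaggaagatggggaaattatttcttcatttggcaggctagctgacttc
Ngp: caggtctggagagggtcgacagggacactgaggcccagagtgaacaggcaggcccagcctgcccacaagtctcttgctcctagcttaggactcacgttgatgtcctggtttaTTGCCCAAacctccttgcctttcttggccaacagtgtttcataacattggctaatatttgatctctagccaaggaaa
Ltf: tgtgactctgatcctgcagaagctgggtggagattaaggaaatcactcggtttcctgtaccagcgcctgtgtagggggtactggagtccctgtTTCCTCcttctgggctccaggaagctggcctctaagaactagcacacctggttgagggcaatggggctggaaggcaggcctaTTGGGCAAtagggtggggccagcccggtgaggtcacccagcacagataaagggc
Il1b: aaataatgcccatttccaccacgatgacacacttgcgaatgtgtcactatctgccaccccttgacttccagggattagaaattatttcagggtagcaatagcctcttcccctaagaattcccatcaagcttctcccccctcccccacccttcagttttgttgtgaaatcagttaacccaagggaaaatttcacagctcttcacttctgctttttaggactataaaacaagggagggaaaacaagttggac

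In the whole windows of 250 bases, TTGCNNAA was found 2 times for Ngp, beginning 138 and 11 bases before the RefSeq start, and 1 time for Ltf, 75 bases before it. The match 11 bases before the RefSeq start of Ngp lies inside the GENCODE gene and is not printed. GAGGAA was found 1 time for Ltf, beginning 157 bases before the RefSeq start. Neither was found for Camp or Il1b. The stretches marked did not overlap. Of 32851 promoters in the table, 9.56% held TTGCNNAA and 23.3% held GAGGAA in a window of the same 250 bases. A match is a description of letters and was not tested as a site.

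Of the 338 neutrophils, 250 held no UMI of Camp, Ngp or Ltf, 8 held 1 or 2, 1 held between 3 and 9, and 79 held 10 or more. Cells with 3 or more were called granule-positive. There were 80, with a median of 644 UMIs of the 3 genes, which made up 9.03% of their UMIs. All 3 genes were found in 78 of the 80 cells. In library 1, 52 of 197 neutrophils were granule-positive (26.4%, 20.4 to 33.1%), and in library 3, 28 of 110 (25.5%, 17.6 to 34.6%). In libraries 2, 4 and 5 there were 0 of 10, 0 of 8 and 0 of 13, which allow up to 30.0, 37.5 and 23.1% by the limit of 3 counts, and 0 of 31 in all, which allows up to 9.68%. The exact binomial upper limits, made in the same way as the intervals of libraries 1 and 3, were 30.8, 36.9 and 24.7%. The shares of libraries 1 and 3 lie under both limits of libraries 2 and 4 and above both of library 5, while their intervals overlap those of each of these libraries. The limit of 9.68% over libraries 2, 4 and 5 together lies below both intervals of libraries 1 and 3, which cover counting error only. The granule-negative cells alone made up 1.28, 0.124, 0.908, 0.0883 and 0.136% of CD45+ cells in libraries 1 to 5, so libraries 1 and 3 were also the highest without granule-positive cells.

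**Figure D3:**
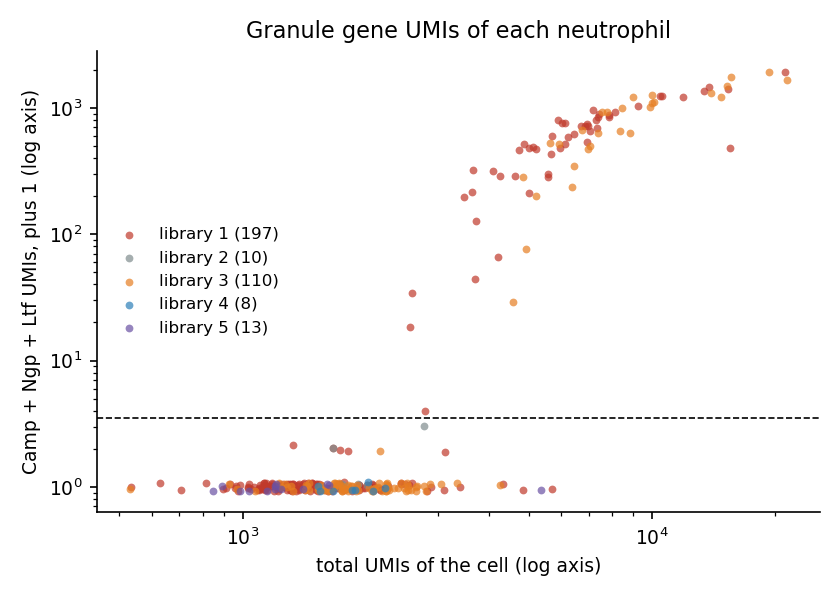
Summed Camp, Ngp and Ltf UMIs (plus 1, log axis, points shifted slightly to part equal values) against total UMIs (log axis) of each of the 338 neutrophils, coloured by library, with the limit of 3 UMIs dashed. The 80 cells above the line come from libraries 1 and 3, and 250 cells lie at 0.

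Granule-positive cells were larger in RNA. They held a median of 6896 UMIs and 1577 genes, against 1603.5 UMIs and 740.5 genes in the other neutrophils, and contributed 58.4% of all neutrophil UMIs. Their lowest cell held 2563 UMIs, and 26 granule-negative cells held 2500 or more. B cell markers summed to 127 and 76.3 CPM in granule-positive cells of libraries 1 and 3 and to 120 and 389 CPM in granule-negative cells. The 8 erythroid and platelet markers summed to 185 and 26.7 CPM in the former and to 5074 and 75.4 CPM in the latter, and the part of red cell RNA in the differences between the classes was not tested. Under any rule, 97, 1, 43, 2 and 0 cells of libraries 1 to 5 held 10 or more UMIs of the 3 genes, and 36, 1, 12, 1 and 0 of these held Cd79a. Of the cells with 10 or more, 51, 0, 28, 0 and 0 passed the rule, so the granule-positive shares depend on it.

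Only libraries 1 and 3 had at least 10 cells of both classes, so no test was made between them, and genes were counted as past 2-fold where the ratio exceeded 2 in the same direction in both libraries. Of 1620 genes at 100 CPM or more in the higher class, 176 (10.9%) were past 2-fold in granule-positive cells and 548 (33.8%) in granule-negative cells, and 244 and 409 of 1588 with TMM scaling. The median gene stood at -0.65 on the log2 scale. All 4 secondary granule genes assessed outside the definition and the 3 of 6 primary granule genes that could be assessed (Elane, Prtn3 and Ms4a3) were past 2-fold in granule-positive cells. With every cell thinned to 1000 UMIs, however, 3 of 80 granule-positive cells held at least 2 of the 6 primary granule genes, and 0 granule-negative cells did. Ngp stood at 46135 and 40019 CPM in granule-positive cells of libraries 1 and 3 and at 17.2 and 0 CPM in granule-negative cells, as the class definition requires. Outside the definition, Chil3 stood at 6186 and 6457 CPM against 0 and 0, which is at least 826-fold higher against the limit of 3 UMIs over both libraries, although granule-negative neutrophils of library 5 stood at 3899 CPM through 1 cell. Lcn2, neutrophil gelatinase-associated lipocalin, was found in both classes, at 15870 and 16624 against 1925 and 1294 CPM. Serpinb1a, an inhibitor of elastase, stood at 998 and 1019 against 4.30 and 12.6 CPM.

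Elane, neutrophil elastase, stood at 614 and 198 CPM against 0 and 0, but 248 of its 274 UMIs in neutrophils lay in 2 cells. Prtn3, proteinase 3, stood at 589 and 351 CPM against 4.30 and 18.8 CPM. Cebpe, the transcription factor that drives secondary granule genes, stood at 484 and 473 against 25.8 and 12.6 CPM. Cybb was higher in granule-positive cells, at 2557 and 2721 against 68.7 and 75.4 CPM, as was Ncf1. Lyz2, which chose the comparison cells, stood at 11372 and 12461 CPM against 1835 and 1444 CPM.

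Cell cycle transcripts were on the same side, with 6 of 7 genes assessed past 2-fold in granule-positive cells and 0 in the others. Mki67 stood at 368 and 313 CPM against 4.30 and 0, and Top2a at 357 and 324 against 4.30 and 0. With every cell thinned to 1000 UMIs, 13 of 80 granule-positive cells (16.2%) held at least 2 of 5 cycling genes, 8 of them in library 1 and 5 in library 3, and 0 of 241 granule-negative cells did.

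Genes of the cytokine and chemokine list stood on the granule-negative side in 5 of 6 genes assessed, Tnfaip2 among the 5. Il1b stood at 11.1 and 91.6 CPM in granule-positive cells of libraries 1 and 3 and at 5585 and 7744 CPM in granule-negative cells, which is 505-fold and 84.5-fold higher and rests on 4 and 24 UMIs in the granule-positive cells. Granule-negative cells of libraries 2, 4 and 5 held 3976, 5066 and 4001 CPM of Il1b, below both values of libraries 1 and 3. The 5 genes past 2-fold include Il1rn, the interleukin-1 receptor antagonist, at 22.1 and 49.6 against 133 and 195 CPM. Osm, oncostatin M, was not past 2-fold, at 141 and 134 against 215 and 257 CPM, and Tnf was too low to be assessed. Cxcl2 stood at 30.4 and 22.9 against 803 and 647 CPM, and Ccl6 at 19.4 and 7.63 against 1817 and 2387 CPM. Interferon-stimulated genes gave 7 of 10 on this side and 0 on the other. Ifitm1 stood at 60.8 and 15.3 against 6625 and 4547 CPM, above the 218, 1419 and 557 CPM in neutrophils of libraries 2, 4 and 5.

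Of the receptors, Cxcr4, Ccr1, C5ar1, Il1r2, Il4ra and Ifngr1 were past 2-fold in granule-negative cells, and Fpr2 and Ltb4r1 in granule-positive cells. The gate gene Csf3r stood at 141 and 210 CPM in granule-positive cells and at 2273 and 2814 CPM in the others. Transcription factors differed in kind, with Cebpb, Cebpd, Klf2, Junb and Fos past 2-fold in granule-negative cells and Cebpe in granule-positive cells. Mcl1 stood at 332 and 454 against 2428 and 2839 CPM. Stfa2l1, Cstdc4, H2-Q10, Sirpb1b and Sirpb1c were also far higher in granule-negative cells, and all belong to families of near-identical copies, so their counts are uncertain. Mmp9 differed little between the classes, at 1059 and 924 against 1139 and 898 CPM, and Itgam stood at 771 and 634 against 602 and 571 CPM. Of the 6 genes of the tertiary granule list, 2 were past 2-fold in granule-positive cells and 2 in granule-negative cells. Mmp8 was among the former, at 1396 and 1538 against 602 and 421 CPM.

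**Figure D4:**
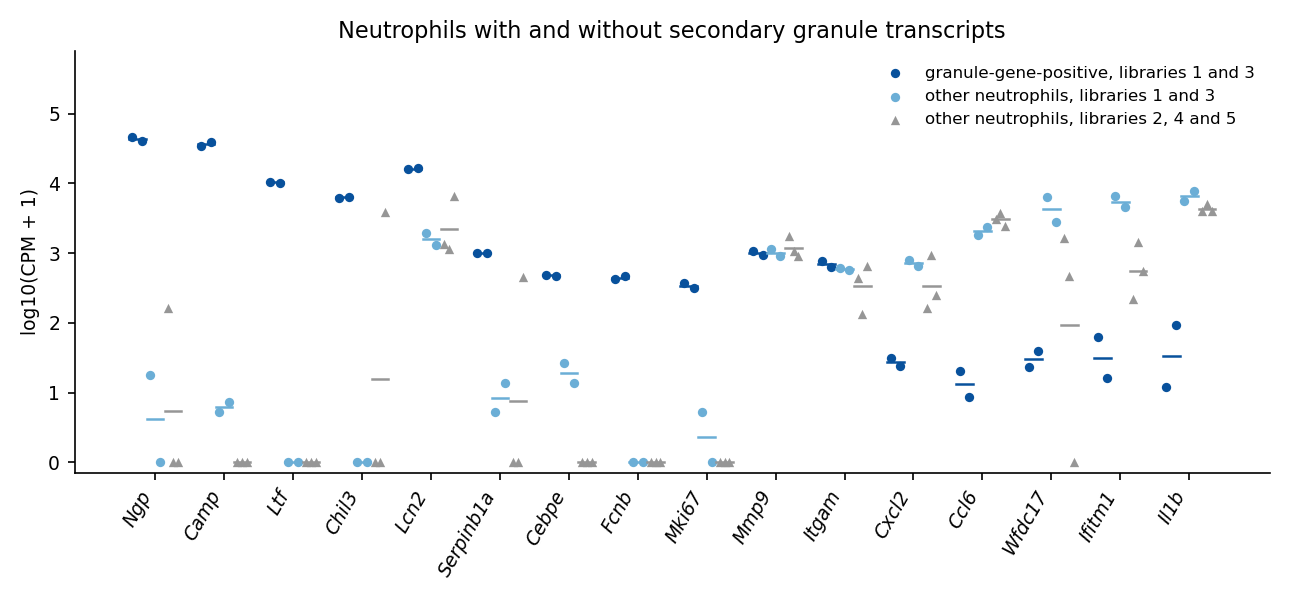
Summed CPM, as log10 of CPM plus 1, of 16 genes in granule-positive neutrophils of libraries 1 and 3 (dark circles), granule-negative neutrophils of the same libraries (light circles) and granule-negative neutrophils of libraries 2, 4 and 5 (triangles), with bars at the mean of the plotted values. Ngp, Camp and Ltf define the classes, Mmp9 and Itgam lie together, and Il1b and Ccl6 lie high in both sets of granule-negative cells.

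The classes were also compared at equal depth. With each cell thinned to 1000 UMIs, which left out 17 shallower neutrophils and 19 other Lyz2+ cells, Il1b was found in 232 of 241 granule-negative cells (96.3%), 3 of 80 granule-positive cells (3.75%) and 102 of 598 other Lyz2+ cells (17.1%). B cells, which should lack it, gave 7 of 2492 (0.281%) when drawn equally from the 5 libraries. Unthinned, the shares of these 4 sets of cells were 96.9, 5, 33.4 and 0.640%. Over all B cells, unthinned, the share was 1.26 and 0.672% in libraries 1 and 3, which held all granule-positive cells, and 0.212 to 0.351% in the others. Ngp is part of the class definition, so its split was fixed in advance. It was found in 80 of 80 granule-positive and 4 of 241 granule-negative cells (1.66%), against 0.241% of the drawn B cells. Unthinned, Ngp was found in 2.33% of granule-negative cells (0.858 to 4.99%) and in 1.66 and 0.709% of all B cells of libraries 1 and 3. Mmp9 was found in 55.0% of granule-positive and 59.3% of granule-negative cells, with 0.241% of B cells. Ly6g was found in 55.0 and 17.8%, and unthinned in 88.8 and 24.4%. Slpi was found in 38.8 and 90.9%, with 18.2% of other Lyz2+ cells.

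**Figure D5:**
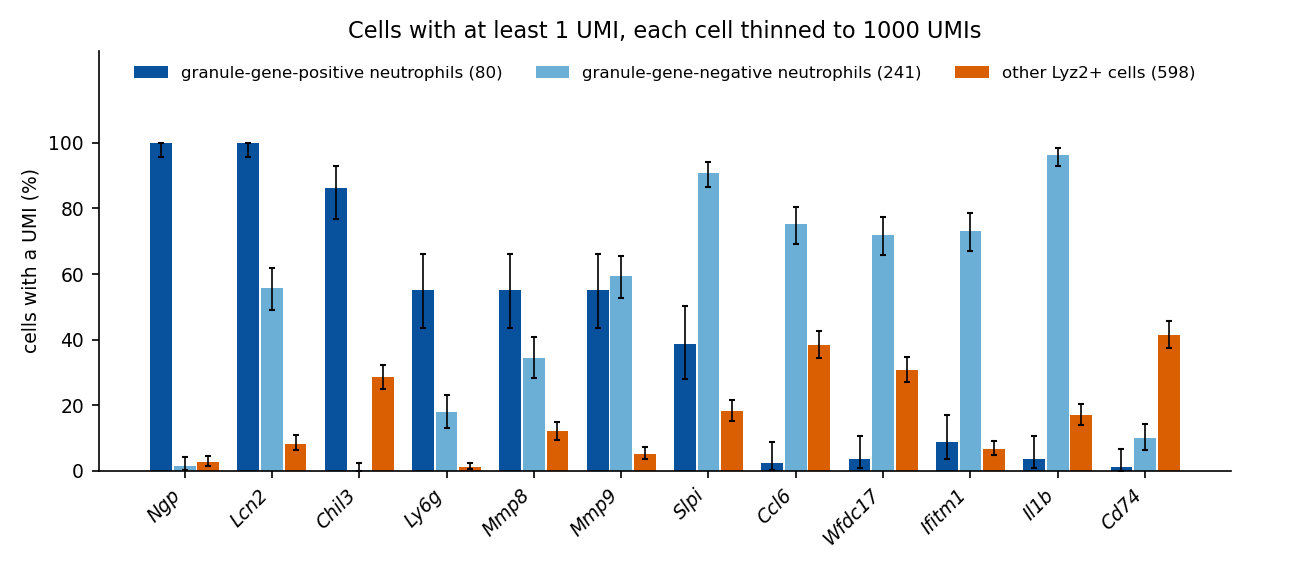
Percent of cells with at least 1 UMI of 12 genes after thinning each cell to 1000 UMIs, in granule-positive neutrophils (80), granule-negative neutrophils (241) and other Lyz2+ cells (598), with 95% exact binomial intervals. Ngp, Lcn2 and Chil3 are highest in granule-positive cells, Slpi, Ccl6, Wfdc17, Ifitm1 and Il1b in granule-negative cells, and Mmp9 has overlapping intervals in both classes. Ngp is part of the class definition.

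The same rule was applied to CD45+ cells of rejecting kidney grafts at 1 week, which the labels give as WT C57BL/6J and the methods as B6 grafts in DBA/2J recipients. It returned 21 of 11948 cells (0.176%, 0.109 to 0.269%), 7 and 14 in the 2 libraries. The lowest cell of that matrix held 1001 UMIs, against 503 in the spleen, so the matrices differ in their floor, and the shares are not compared. The markers of the 21 cells were mixed, and most went against the neutrophil name. Their S100a8 and S100a9 UMIs had a median of 18 and took 1.53% of the total, Ly6g and Camp were found in 0 of 21, Retnlg in 1, Mmp9 in 2, Cxcr2 in 4 and Cd74 in 20, while Csf3r was found in 21 and Il1b in 11. Since the rule asked for Csf3r, Retnlg or Cxcr2, the counts of these genes are a description. In spleen neutrophils Cd74 was found in 14.2%. With fewer than 20 such cells in each library, no expression test between the tissues was made.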

How the data were processed

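The authors mapped reads with Cell Ranger (version not given in the sources used here) to mm10, per the submitters' processing notes, filtered cells by UMIs, genes and mitochondrial content, and deposited raw UMI counts per gene and cell without normalization. The filter limits are not given in the sources used here. From those deposited counts, cells were chosen by the rule in the report, and UMIs were summed per class and library and scaled to CPM by plain totals. Neutrophils and other Lyz2+ cells were compared with edgeR 4.0.16 (filterByExpr, quasi-likelihood F test, library as block, Benjamini-Hochberg) in R 4.3.3. The genes of the rule stayed in the totals and out of the test. On simulated counts the fit recovered 120 of 200 genes changed 2-fold and 199 of 200 changed 4-fold, with 4 and 13 false calls. The simulation used 1 mean profile with a fixed dispersion, no differences between libraries, and changed genes above 100 CPM only. The libraries here differ, so this recovery does not carry over to the real counts. Class ratios used no test, and counting genes past 2-fold was chosen after seeing the data. Coordinates come from GENCODE M21 (17357 of 17644 symbols matched). Genes were named by rule: up to 4 per list with the highest mean CPM in neutrophils, and the 10 called genes with the largest and smallest log2 fold change among those with at least 100 CPM. Other named genes were chosen after their values were seen. The members and lists were chosen with earlier results of these data known. TMM, DESeq2 1.42.0, filter, threshold and leave-one-out alternatives were run. The count matrices of accepted grafts and recipient spleens were not used here. The rule was not applied to the CD8+ matrix of naive spleen, in which 0 of the 338 neutrophil barcodes occurred. Results for a few single genes are not reported here.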

Additional observations from a re-analysis of the deposited data

Results flagged for a closer look

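Over the 5 libraries, 100 sets of values were checked for a library standing far from the rest of its group, and 11 did, where chance flags about 1 in 20. In neutrophils of library 2, Mmp9 (1743 CPM), Hmox1 (272 CPM), Rac2 (926 CPM), H2-Aa (327 CPM) and Cd74 (654 CPM) lay apart from the other libraries; that library held 10 neutrophils and 18361 UMIs. In neutrophils of library 4, with 8 cells and 14803 UMIs, Cxcl2 (946 CPM), Csf2rb (608 CPM) and Cstdc4 (1689 CPM) lay above the rest. In library 1, S100a4 (10.1 CPM), Ccr2 (1.68 CPM) and Gzma (5.05 CPM) were above 0 while every other library was at 0, and they rest on 6, 1 and 3 UMIs.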

How the results depend on the processing

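The count of genes lower in neutrophils moved with the scaling, the filter and the libraries. It was 2098 with plain totals, 1359 with TMM, 1358 with totals that leave out the genes of the rule (971 higher), 4245 (1105 higher) with every gene with a UMI, and 417 (384 higher) without libraries 1 and 3 and 3536 (967 higher) with those alone; the last choices, like the totals and the granule-negative set, were added after seeing the data. DESeq2 gave 476 higher and 1631 lower. Without the replicate block the fit gave 664 higher and 2208 lower. Leaving out each library gave 433 to 675 higher and 1054 to 2432 lower, with 1105 lower without library 1 and 1054 without library 3. Class counts under every gene with a UMI were 969 and 1578. Named genes that changed sign were Cyba with DESeq2 (-0.04) and Actg1 with TMM (0.00), DESeq2 (-0.17), libraries 1 and 3 alone (-0.09) and without library 2 (-0.08, in a range of -0.08 to 0.12 without 1 library); neither was called in the reported fit. Chil3, which was called (1.13), changed sign with DESeq2 (-0.11, adjusted p = 0.96) and in granule-negative neutrophils (-3.55), and ran from 0.47 to 1.56 without 1 library. The cause was not tested. The neutrophil share stayed between 0.687 and 0.722% under the other thresholds and filters, 0.606% without cells with a UMI of another lineage, and 0.395 to 0.868% without 1 library. It moved further, to 1.18%, without the exclusion of Cd79a, Cd3e and Csf1r, and to 0.116% without libraries 1 and 3. DESeq2 and the block were not run between granule classes, and the tissue fit and its difference between cell classes were not run, since too few cells per library met the rule. Libraries 2, 4 and 5 hold 14803 to 19747 neutrophil UMIs each, which limits what can be seen of weak genes there.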

Other observations

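Ribosomal protein genes, a list formed after seeing the data, were lower in neutrophils in 78 of 78 tested, with a median log2 fold change of -2.10 with plain totals and -2.12 with TMM. They summed to 51947, 68733, 50312, 50260 and 61579 CPM in neutrophils of libraries 1 to 5 and to 191030 to 240720 CPM in the other Lyz2+ cells. From libraries 2, 4 and 5 alone, 76 were lower. In libraries 1 and 3 they stood at 51998 and 51434 CPM in granule-positive and 51867 and 48465 CPM in granule-negative cells. Mitochondrial transcripts took a median of 0.321 to 0.895% of the UMIs of a neutrophil and 2.44 to 3.43% of those of another Lyz2+ cell.

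Actin and motility genes gave 4 higher and 1 lower of 13 tested, and 5 and 1 from libraries 2, 4 and 5 alone. Tmsb4x, thymosin β4, averaged 23989 ± 3983 against 18686 ± 1671 CPM (log2 fold change 0.35 ± 0.15), a call lost with TMM, and Actb averaged 10862 against 8594 CPM and was not called (edgeR adjusted p = 0.10). Glycolysis and hypoxia genes gave 3 higher and 1 lower of 9 tested, and 1 and 0 from libraries 2, 4 and 5 alone. Slc2a3, a glucose transporter of neutrophils, averaged 243 ± 58.9 against 19.5 ± 11.1 CPM (log2 fold change 3.54 ± 0.31), and Gapdh 827 against 571 CPM and was not called.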
